A study of Mus musculus with 16 samples.

Results

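The immunoproteasome and peptide loading genes are a set of 10 genes chosen by symbol: the catalytic subunits *Psmb8*, *Psmb9* and *Psmb10*, the PA28 activator subunits *Psme1* and *Psme2*, the peptide transporter subunits *Tap1* and *Tap2*, the peptide editors *Tapbp* and *Tapbpl*, and the trimming peptidase *Erap1*. All 10 were found among the 16707 genes of the table of log2 CPM that the authors deposited, in which a gene's read count is scaled to the depth of its library. Cells display fragments of their own proteins on MHC class I molecules, and these genes make the fragments and load them. The proteasome cuts proteins into peptides, TAP carries the peptides into the endoplasmic reticulum, ERAP1 trims them, and tapasin and its relative TAPBPR select those that bind class I well. IFNγ is known to induce the alternative catalytic subunits, which then replace the constitutive ones in newly assembled proteasomes, and PA28, which caps the proteasome core.

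Primary astrocytes were purified from the brains of mouse pups at postnatal day 6 with beads against the astrocyte antigen ACSA-2, and RNA was sequenced in 16 libraries. That age is the one in the sample labels and the methods, and the study's account of its results gives a younger one. WT (C57BL6J) and *Nlrx1*-/- pups gave 4 litters each, and *Nlrx1*-/- mice lack the mitochondrial NOD-like receptor NLRX1 in every cell. From each litter, 1 well received vehicle (H2O) and 1 well received the bacterial cell wall component LPS at 500 ng/mL with the cytokine IFNγ at 10 ng/mL, both for 24 h. The 4 groups were therefore WT vehicle, WT LPS + IFNγ, *Nlrx1*-/- vehicle and *Nlrx1*-/- LPS + IFNγ, with 4 libraries in each, and the vehicle and treated wells of a litter came from the same mice.

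Between 27259420 and 43752903 read pairs per library were assigned to transcripts. *Nlrx1* itself stood at 4.22 ± 0.15 log2 CPM (SD, n = 4) in WT vehicle and 4.12 ± 0.05 in WT LPS + IFNγ, against 2.47 ± 0.53 and 1.90 ± 0.54 in the *Nlrx1*-/- groups, so every knockout library lay below every WT library. The summed CPM of 9 astrocyte markers was 6595 to 10282 in WT vehicle and 5612 to 8353 in WT LPS + IFNγ. It was 5012 to 8047 in *Nlrx1*-/- vehicle and 4677 to 6496 in *Nlrx1*-/- LPS + IFNγ. In treated wells all 9 were lower in *Nlrx1*-/- than in WT litters, 3 of them called by edgeR, with 2.26% of all genes. In vehicle 7 were lower and 2 higher, with 0 called. The summed CPM of 11 microglia and macrophage markers was between 1.14 and 3.84, with *Aif1* at 0 in every library of 3 of the 4 groups. The summed CPM of 6 oligodendrocyte lineage markers was 493 to 780 in WT vehicle, 204 to 397 in WT LPS + IFNγ, 184 to 627 in *Nlrx1*-/- vehicle and 79.1 to 231 in *Nlrx1*-/- LPS + IFNγ. That of 3 ependymal markers was 174 to 239, 115 to 157, 103 to 191 and 64.1 to 113 in the same order of groups. That of 4 neuron markers was 13.8 to 20.6 in the vehicle libraries and 53.8 to 84.5 in the treated ones. Of these 4, 2 had log2 fold changes above 0 after treatment and 2 below, in each genotype. They ran from -0.91 to 2.69 in WT and from -1.36 to 2.93 in *Nlrx1*-/- litters. The summed CPM of 4 endothelial markers was 3.49 to 4.93 in treated *Nlrx1*-/- and 0.75 to 1.90 in treated WT libraries. That of 5 fibroblast and pericyte markers was 32.2 to 37.3 in WT vehicle and 16.5 to 28.6 in WT LPS + IFNγ. In *Nlrx1*-/- vehicle it was 16.3 to 64.0, and in *Nlrx1*-/- LPS + IFNγ 11.7 to 48.6. The microglia and macrophage markers *Cx3cr1*, *Fcrls* and *Itgam* were also at 0 in all libraries of a group. None of the oligodendrocyte lineage, ependymal, neuron, endothelial, fibroblast and pericyte markers was, apart from the endothelial *Cldn5* in *Nlrx1*-/- vehicle. The part of these lists in the differences below was not tested. In libraries from whole cultures, fewer cells of a type and less RNA per cell cannot be told apart.

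All 10 genes rose after LPS + IFNγ in both genotypes. The catalytic subunits *Psmb9* and *Psmb8* moved most and *Psme2* moved least. In WT litters the edgeR log2 fold change ran from 3.22 for *Psme2* to 8.11 for *Psmb9*, and in *Nlrx1*-/- litters from 3.03 to 7.83 for the same 2 genes. Of the 16066 genes tested with edgeR, 24.3% were called higher and 19.8% lower in WT, and 25.6% higher and 23.9% lower in *Nlrx1*-/- litters, at an adjusted p below 0.05. The median log2 fold change of the 10 genes was 4.46 in WT and 4.37 in *Nlrx1*-/- litters, beside -0.01 and -0.03 for all genes tested. Among all genes ordered by rise, the 10 stood between place 84 (*Psmb9*) and place 326 (*Psme2*) in WT, and between place 99 and place 367 in *Nlrx1*-/- litters. For each of the 10, every treated library lay above every vehicle library, which held for 20.2% of the 16707 genes of the table in WT and for 17.6% in *Nlrx1*-/- litters.

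**Figure D1:**
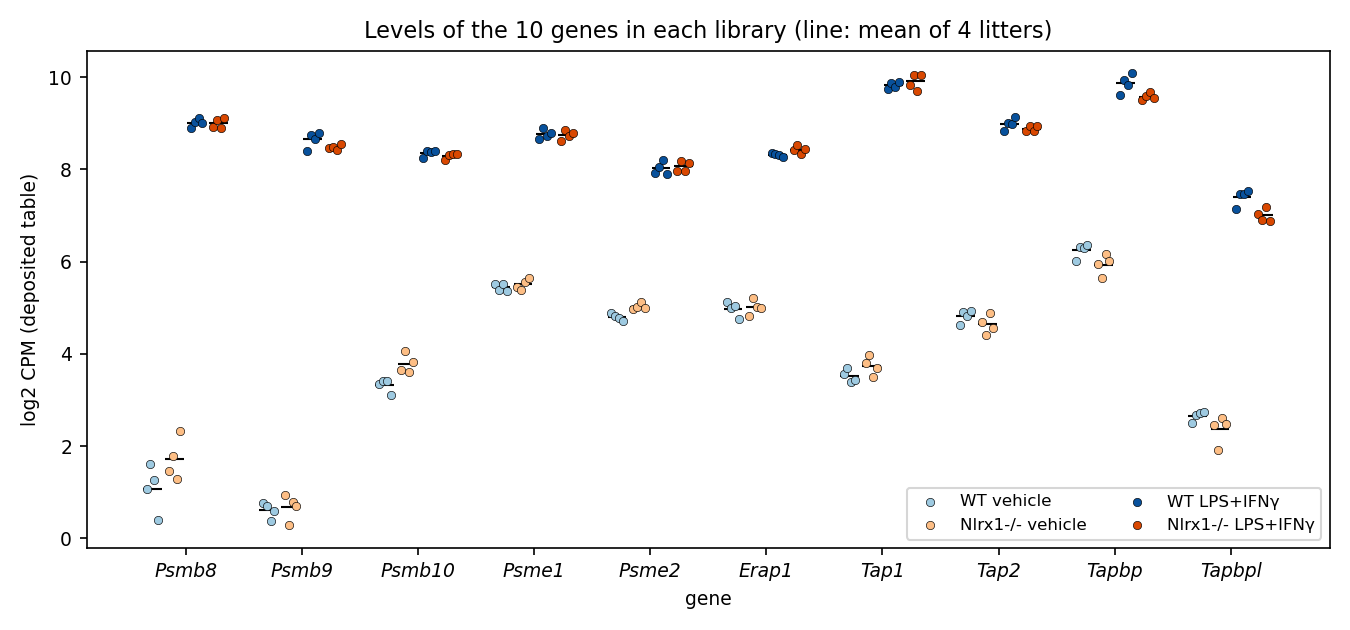
Log2 CPM of the 10 genes (vertical axis) in each of the 16 libraries, by gene (horizontal axis) and group; each point is 1 library and each line the mean of 4 litters. Treated libraries lie above vehicle libraries for every gene, and the vehicle libraries lie between 0.28 and 2.33 log2 CPM for *Psmb8* and *Psmb9*.

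All 3 catalytic subunits rose in every litter. *Psmb8* encodes the subunit that takes the place of the PSMB5 subunit, with chymotrypsin-like activity. It stood at 1.06, 1.61, 1.26 and 0.39 log2 CPM in WT vehicle litters 1 to 4 and at 1.46, 1.79, 1.29 and 2.33 in the *Nlrx1*-/- vehicle litters. After LPS + IFNγ it stood at 8.89, 9.03, 9.10 and 9.01 in WT and at 8.91, 9.07, 8.89 and 9.11 in *Nlrx1*-/- litters. WT litter 4 was the lowest vehicle library and *Nlrx1*-/- litter 4 the highest, while the treated libraries of the genotypes overlapped. The rise was 244-fold in WT (log2 fold change 7.93, standard error 0.19, edgeR adjusted p = 2.04e-10) and 153-fold in *Nlrx1*-/- litters (7.26, standard error 0.18, edgeR adjusted p = 2.82e-10). The vehicle levels rest on 47 to 214 reads per library and the treated levels on 13366 to 19613.

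*Psmb9*, whose product replaces PSMB6, rose by the largest factor of the 10. Its levels were 0.76, 0.70, 0.38 and 0.58 log2 CPM in WT vehicle litters and 0.93, 0.28, 0.78 and 0.69 in *Nlrx1*-/- vehicle litters. They were 8.40, 8.75, 8.66 and 8.78 in treated WT and 8.46, 8.49, 8.41 and 8.54 in treated *Nlrx1*-/- litters. Of the treated WT litters, 3 lay above every treated *Nlrx1*-/- litter and litter 1 lay below them all. The rise was 275-fold in WT (log2 fold change 8.11, standard error 0.12, edgeR adjusted p = 6.70e-12) and 227-fold in *Nlrx1*-/- litters (7.83, standard error 0.12, edgeR adjusted p = 7.40e-12).

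*Psmb10*, whose product replaces PSMB7, rose less. It stood at 3.35, 3.42, 3.42 and 3.11 log2 CPM in WT vehicle and at 3.65, 4.06, 3.61 and 3.81 in *Nlrx1*-/- vehicle, without overlap between the genotypes. After LPS + IFNγ the levels were 8.24, 8.40, 8.37 and 8.40 in WT and 8.19, 8.31, 8.33 and 8.33 in *Nlrx1*-/- litters, which overlapped. Its rise was 32.7-fold in WT (log2 fold change 5.03, standard error 0.10) and 22.6-fold in *Nlrx1*-/- litters (4.50, standard error 0.09).

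The PA28 subunits rose by a smaller factor. *Psme1* (PA28α) lay between 5.35 and 5.64 log2 CPM in the 8 vehicle libraries and between 8.62 and 8.89 in the 8 treated libraries. Its log2 fold change was 3.32 in WT and 3.22 in *Nlrx1*-/- litters, each with a standard error of 0.08. *Psme2* (PA28β) stood at 4.89, 4.81, 4.78 and 4.70 log2 CPM in WT vehicle and at 4.96, 5.01, 5.12 and 4.99 in *Nlrx1*-/- vehicle, so all 4 knockout litters lay above the WT litters by a small margin. Treated, it stood at 7.91, 8.06, 8.20 and 7.90 in WT and 7.97, 8.18, 7.97 and 8.13 in *Nlrx1*-/- litters, a log2 fold change of 3.22 and 3.03 with a standard error of 0.07 in both. *Psme2b*, a near-identical copy of *Psme2* on chromosome 11, has its own row in the table, so the split of reads between both is uncertain. Its treated levels were 3.23 to 3.94 log2 CPM in WT and 2.25 to 3.13 in *Nlrx1*-/- litters.

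Both transporter subunits rose, *Tap1* by the larger factor. *Tap1* stood at 3.57, 3.68, 3.39 and 3.42 log2 CPM in WT vehicle and 3.81, 3.98, 3.50 and 3.69 in *Nlrx1*-/- vehicle. Treated levels were 9.75, 9.88, 9.79 and 9.88 in WT and 9.84, 10.05, 9.69 and 10.04 in *Nlrx1*-/- litters, with overlap of the genotypes in both treatments. That was a rise of 79.5-fold in WT (log2 fold change 6.31, standard error 0.08) and 71.2-fold in *Nlrx1*-/- litters (6.15, standard error 0.08). *Tap2* lay between 4.42 and 4.93 log2 CPM in vehicle and between 8.82 and 9.14 in the treated libraries, with a log2 fold change of 4.17 in WT and 4.23 in *Nlrx1*-/- litters (standard error 0.09 in both).

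Both peptide editors rose. *Tapbp* encodes tapasin, which holds class I molecules to the transporter. It stood at 6.01, 6.32, 6.28 and 6.36 log2 CPM in WT vehicle and 5.94, 5.63, 6.16 and 6.00 in *Nlrx1*-/- vehicle. After treatment it stood at 9.61, 9.94, 9.82 and 10.08 in WT and 9.50, 9.58, 9.67 and 9.55 in *Nlrx1*-/- litters. In both treatments 3 of the 4 *Nlrx1*-/- litters lay below all WT litters. The log2 fold change after LPS + IFNγ was 3.62 in WT and 3.63 in *Nlrx1*-/- litters, with a standard error of 0.08 in both.

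*Tapbpl* encodes TAPBPR, which edits class I cargo away from the transporter. It stood at 2.49, 2.68, 2.72 and 2.74 log2 CPM in WT vehicle and 2.47, 1.90, 2.61 and 2.47 in *Nlrx1*-/- vehicle. The treated levels were 7.15, 7.47, 7.47 and 7.53 in WT and 7.03, 6.91, 7.19 and 6.88 in *Nlrx1*-/- litters. Again 3 of 4 knockout litters lay below every WT litter in each treatment, and the exception in the treated wells was litter 3. The rise was 27.1-fold in WT (log2 fold change 4.76) and 24.8-fold in *Nlrx1*-/- litters (4.63), with a standard error of 0.09 in both. *Erap1*, which trims peptides in the endoplasmic reticulum, lay between 4.76 and 5.22 log2 CPM in vehicle and between 8.28 and 8.54 in treated libraries. Its log2 fold change was 3.25 in WT and 3.38 in *Nlrx1*-/- litters, each with a standard error of 0.08. Its reads were spread over 3 transcripts, and the levels summed from them were 87.3% to 107% of the deposited ones.

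**Figure D2:**
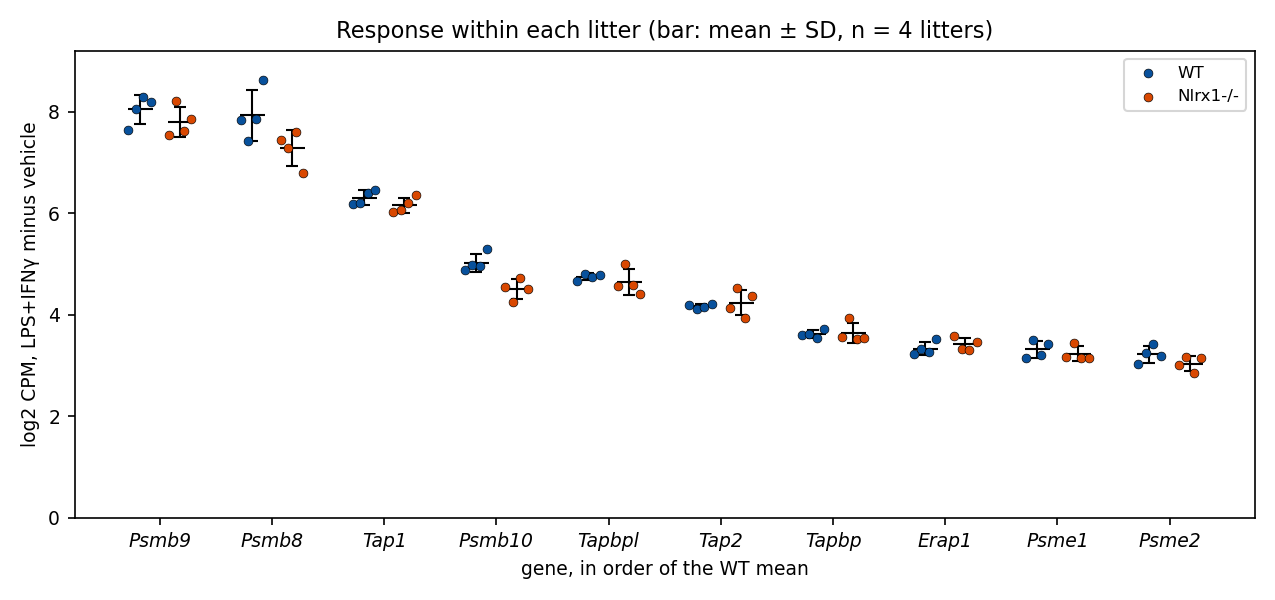
Difference in log2 CPM between the LPS + IFNγ well and the vehicle well of each litter (vertical axis) for the 10 genes, in order of the WT mean (horizontal axis); points are litters and bars the mean ± SD of 4 litters. *Psmb9* and *Psmb8* lead in both genotypes, and for *Psmb10* the WT litters (4.89 to 5.29) lie above the *Nlrx1*-/- litters (4.26 to 4.72).

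The order of the responses on log2 CPM was *Psmb9*, *Psmb8*, *Tap1*, *Psmb10*, *Tapbpl*, *Tap2*, *Tapbp*, *Erap1*, *Psme1* and *Psme2* in WT litters. In *Nlrx1*-/- litters *Tapbpl* and *Psmb10* changed places. In WT, neighbours from *Psmb8* down to *Erap1* did not overlap between litters, while *Psmb9* overlapped *Psmb8*, and *Erap1*, *Psme1* and *Psme2* overlapped one another in turn. In *Nlrx1*-/- litters only *Psmb8* with *Tap1*, and *Tap1* with *Tapbpl*, were neighbours without overlap. Within each of the 4 *Nlrx1*-/- litters, *Psmb9* still rose more than *Psmb8*, *Tap2* more than *Tapbp* and *Psme1* more than *Psme2*.

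Levels of different genes were compared as TPM, which scales reads by transcript length and library depth. In WT vehicle the order was *Psme1* (124 ± 8.61 TPM, SD, n = 4), *Psme2* (88.1 ± 5.51), *Tapbp* (59.4 ± 5.64), *Tap2* (24.5 ± 2.04), *Psmb10* (19.5 ± 1.94), *Erap1* (15.9 ± 1.95), *Tap1* (8.13 ± 0.74), *Tapbpl* (6.70 ± 0.47), *Psmb9* (5.24 ± 0.62) and *Psmb8* (4.41 ± 1.46). *Psmb10* and *Erap1* overlapped between litters, as did *Psmb9* and *Psmb8*. After LPS + IFNγ in WT, *Psmb9* led at 1232 ± 121 TPM, overlapping *Psme1* at 1061 ± 49.2, and *Psmb8* followed at 908 ± 39.9. *Psme2* (707 ± 58.3), *Tapbp* (630 ± 80.6), *Tap1* (554 ± 20.8) and *Psmb10* (546 ± 19.9) overlapped in turn, above *Tap2* (378 ± 32.3). *Erap1*, at 129 ± 4.41 TPM, was then lowest, below *Tapbpl* at 156 ± 15.5. In *Nlrx1*-/- litters these last 2 stood the other way round, *Erap1* at 142 ± 5.46 TPM and *Tapbpl* at 117 ± 15.3, and the litters did not overlap in either genotype. The TPM of the 10 genes summed to 356 ± 10.9 in WT vehicle and 358 ± 19.6 in *Nlrx1*-/- vehicle, and to 6302 ± 324 and 5910 ± 126 after LPS + IFNγ.

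The transporter subunits *Tap1* and *Tap2* did not rise alike. Their TPM ratio went from 0.33 ± 0.05 to 1.47 ± 0.08 in WT and from 0.45 ± 0.12 to 1.67 ± 0.13 in *Nlrx1*-/- litters (SD, n = 4), with no overlap between treatments in either genotype. The ratio of the editors *Tapbp* and *Tapbpl*, which do not sit in 1 complex, went from 8.87 ± 0.33 to 4.03 ± 0.22 in WT and from 8.81 ± 0.72 to 4.37 ± 0.34 in *Nlrx1*-/- litters, again without overlap. The ratio of *Psme1* to *Psme2* was 1.40 ± 0.07 in vehicle and 1.51 ± 0.16 treated in WT, and 1.26 ± 0.10 and 1.44 ± 0.04 in *Nlrx1*-/- litters, and the treatments overlapped in both genotypes.

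Each immunoproteasome subunit was then set against the constitutive subunit it replaces. In WT vehicle *Psmb8* made up 2.45 ± 0.67% of the TPM of *Psmb8* and *Psmb5* together, *Psmb9* 2.32 ± 0.24% of *Psmb9* and *Psmb6*, and *Psmb10* 5.76 ± 0.49% of *Psmb10* and *Psmb7* (SD, n = 4). After LPS + IFNγ the shares in WT were 79.9 ± 1.98%, 81.1 ± 1.75% and 57.6 ± 2.80%. In *Nlrx1*-/- litters they went from 3.26 ± 1.32% to 79.1 ± 0.88% for *Psmb8*, from 2.26 ± 0.44% to 78.1 ± 0.75% for *Psmb9* and from 7.30 ± 1.15% to 56.2 ± 2.37% for *Psmb10*. The immunoproteasome subunit thus held the larger part of the transcripts of every pair in every treated library, with the *Psmb10* share the lowest of the 3. The summed TPM of the 3 immunoproteasome subunits was 29.2 ± 3.38 in WT vehicle and 2686 ± 164 in treated WT, and 37.7 ± 3.81 and 2474 ± 57.3 in *Nlrx1*-/- litters. The summed TPM of the 3 constitutive subunits was 713 ± 34.4 in WT vehicle and 918 ± 79.4 in treated WT, and 758 ± 41.1 and 938 ± 55.3 in *Nlrx1*-/- litters. *Psmb5*, *Psmb6* and *Psmb7* were each called higher after LPS + IFNγ in both genotypes, with log2 fold changes between 0.41 and 0.62. These are shares of transcripts, and proteasome subunit protein was not measured here.

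**Figure D3:**
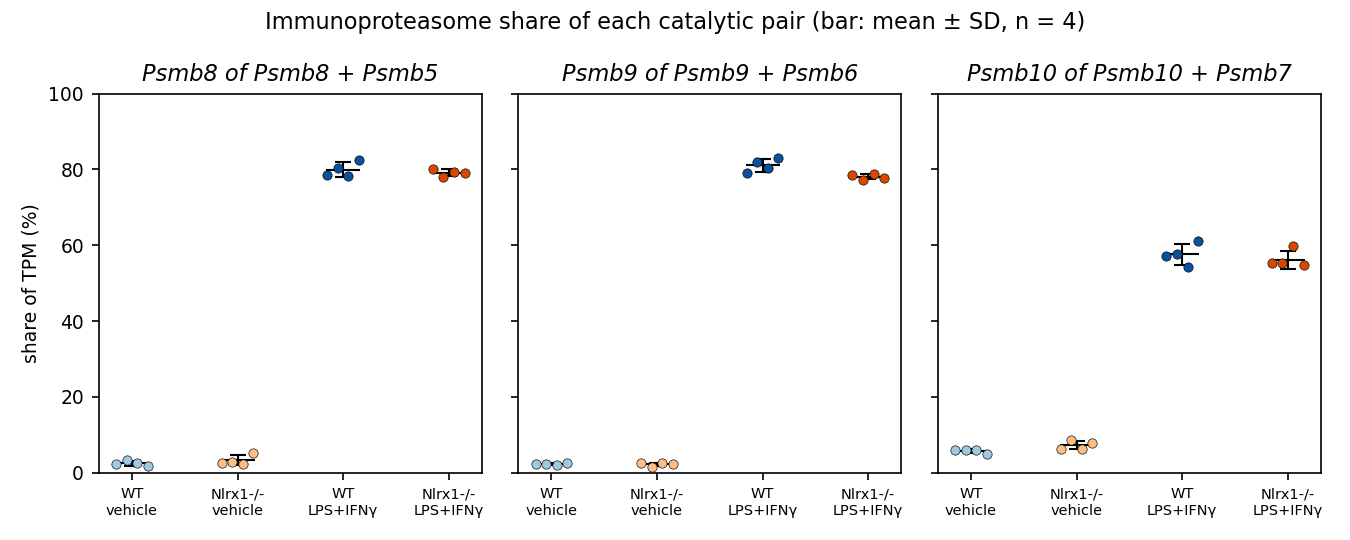
Share of each immunoproteasome subunit in the summed TPM of its pair (vertical axis, percent) in the 4 groups (horizontal axis), 1 panel per pair; points are litters and bars the mean ± SD of 4. The shares are under 10% in vehicle and lie between 54.4% and 83.0% after LPS + IFNγ.

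The 3 shares were compared between genotypes with two-sided exact permutation tests over litters, in 9 comparisons, for which the smallest p that 4 against 4 litters allow is 0.0286. The *Psmb9* share in treated wells was 79.0%, 81.9%, 80.4% and 83.0% in WT litters and 78.6%, 77.2%, 78.8% and 77.7% in *Nlrx1*-/- litters. The litters did not overlap, at a difference of -3.00 percentage points (exact permutation p = 0.0286, adjusted p = 0.0857). The rise of that share differed by -2.95 points (exact permutation p = 0.0286, adjusted p = 0.0857). The *Psmb10* share in vehicle was 5.96%, 6.10%, 5.93% and 5.03% in WT and 6.37%, 8.73%, 6.37% and 7.73% in *Nlrx1*-/- litters, also without overlap, at a difference of 1.54 points (exact permutation p = 0.0286, adjusted p = 0.0857). With CPM, which is not scaled by transcript length, in place of TPM that difference was 2.38 points (exact permutation adjusted p = 0.0857). None of the 9 passed after adjustment, and the other 6 had an exact permutation p of at least 0.286. A comparison at the smallest p cannot pass after adjustment unless most of the 9 are at that p too. The adjusted p therefore cannot decide whether the shares without overlap differ.

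In vehicle, edgeR called none of the 10 genes between genotypes, where it called 0.0% of all genes in either direction. *Nlrx1* itself was not called there (log2 fold change -1.70, edgeR adjusted p = 0.0510), though no gene had a lower adjusted p. Of the 10, 5 had an unadjusted edgeR p below 0.05 (*Psmb8*, *Psmb10*, *Psme2*, *Tap1* and *Tapbp*), as did 3136 of all 16066 genes. DESeq2 called 1 of the 10 higher, *Psmb10*, and 2.83% of all genes. The log2 fold change of *Psmb10* in *Nlrx1*-/- against WT vehicle was 0.46 (standard error 0.10, edgeR adjusted p = 0.110, DESeq2 adjusted p = 0.00316). That of *Psme2* was 0.22 (standard error 0.07, edgeR adjusted p = 0.150). That of *Psmb8* was 0.66 (standard error 0.22, edgeR adjusted p = 0.152), and 0.40 (edgeR adjusted p = 0.319) without *Nlrx1*-/- litter 4, the highest at 2.33 log2 CPM. *Tapbp* had -0.31 (standard error 0.11) and *Tapbpl* -0.28 (standard error 0.14), which was -0.15 without *Nlrx1*-/- litter 2, the lowest at 1.90 log2 CPM. *Psmb10* and *Psme2* were the 2 of 10 whose *Nlrx1*-/- litters all lay above the WT litters, which held for 6.02% of all genes, and 0 of 10 lay wholly below, against 3.43%. Without *Nlrx1*-/- litter 3, edgeR called *Psmb8* (0.79, adjusted p = 0.0464) and *Psmb10* (0.52, adjusted p = 0.0136) higher, and 3.6% of all genes. With any other litter left out it called none of the 10.

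In treated wells edgeR again called none of the 10, where 2.46% of all genes were called higher and 2.26% lower in *Nlrx1*-/- astrocytes. At an unadjusted p below 0.05 there were 2, *Tapbpl* and *Tapbp*, and 4531 of all 16066 genes. For *Tapbpl* the log2 fold change was -0.42 (standard error 0.12, edgeR adjusted p = 0.0540), and for *Tapbp* it was -0.31 (standard error 0.11, edgeR adjusted p = 0.0922). *Tapbpl* was called lower by DESeq2 (-0.41, adjusted p = 0.0153), which called 7.53% of all genes lower, and by limma-voom (-0.42, adjusted p = 0.0482), which called 1.16%. Without WT litter 1, edgeR called *Tapbpl* (-0.50, adjusted p = 0.0356) and *Tapbp* (-0.39, adjusted p = 0.0386) lower, with 4.46% of all genes. Without *Nlrx1*-/- litter 3 it called both as well (-0.50, adjusted p = 0.0132, and -0.35, adjusted p = 0.0449), with 11.3% of all genes. With any other litter left out it called neither, and at most 71 of all genes were then called lower, without *Nlrx1*-/- litter 1. The other 8 genes had log2 fold changes between -0.20 (*Psmb9*, standard error 0.10) and 0.15 (*Erap1*, standard error 0.10). None of the 10 had litters without overlap on log2 CPM, which 7.09% of all genes had upward and 6.23% downward.

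**Figure D4:**
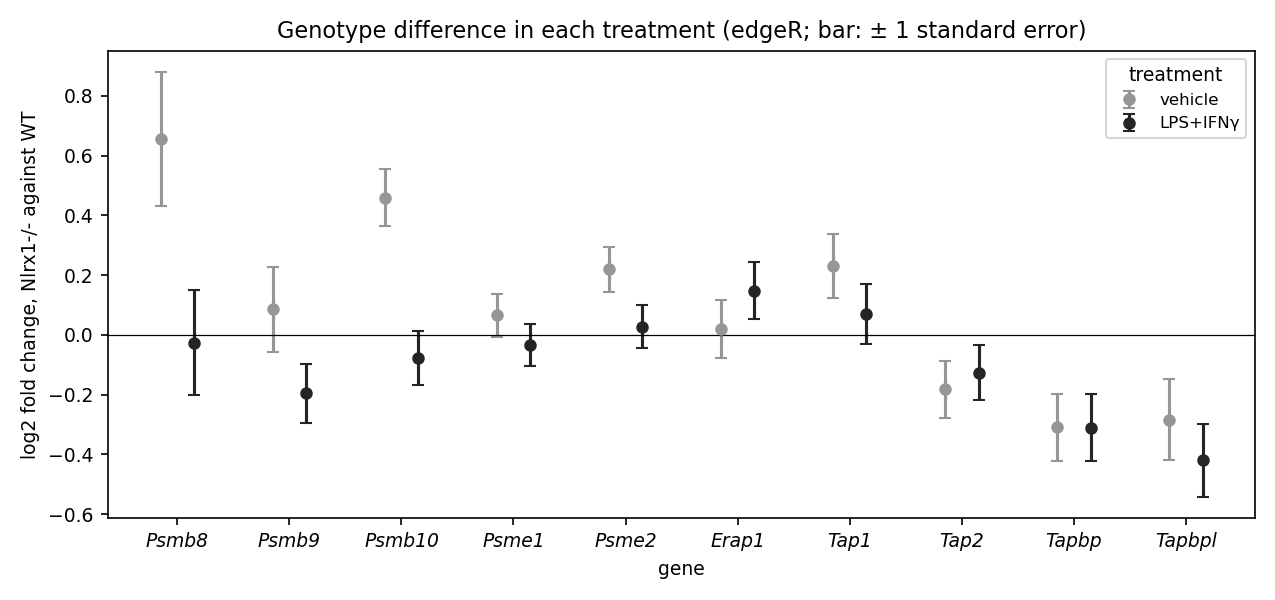
Log2 fold change of *Nlrx1*-/- against WT from edgeR (vertical axis) for the 10 genes (horizontal axis), in vehicle (grey) and in LPS + IFNγ (black); bars are ± 1 standard error. The vehicle value is highest for *Psmb8* (0.66) and the treated value lowest for *Tapbpl* (-0.42).

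The response itself was compared between genotypes as an interaction, which shares its libraries with the comparisons above. The edgeR test called none of the 10 and 0.0% of all genes, DESeq2 called 111 genes higher and 185 (1.15%) lower, and 2484 genes had an unadjusted edgeR p below 0.05. The lowest edgeR adjusted p of any gene in the interaction was 0.212. The 2 of the 10 at an unadjusted p below 0.05 were *Psmb10* and *Psmb8*. *Psmb10* responded in *Nlrx1*-/- litters by 4.54, 4.26, 4.72 and 4.51 log2 CPM and in WT litters by 4.89, 4.98, 4.95 and 5.29. The genotypes did not overlap, in a direction in which 5.25% of all genes did not (3.06% in the other direction), and the difference was -0.53 (standard error 0.12, edgeR adjusted p = 0.212, DESeq2 adjusted p = 0.0131). It was called by edgeR without *Nlrx1*-/- litter 3 (-0.61, adjusted p = 0.0423), where 1.36% of all genes were called lower, and with no other litter left out. *Psmb8* responded by 7.44, 7.28, 7.60 and 6.79 log2 CPM in *Nlrx1*-/- litters and by 7.83, 7.42, 7.85 and 8.62 in WT litters, which overlapped, and the difference was -0.67 (standard error 0.25, edgeR adjusted p = 0.246). For the other 8 the difference lay between -0.28 (*Psmb9*, standard error 0.18) and 0.13 (*Erap1*, standard error 0.11).

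Of the 10 genes, 5 lie on chromosome 17 within the major histocompatibility complex (positions from GENCODE M39 on GRCm39). *Tapbp* is at chr17:34134873-34148267 on the plus strand. *Psmb9* (chr17:34400960-34406738, minus strand), *Tap1* (chr17:34405996-34416199), *Psmb8* (chr17:34416690-34420428) and *Tap2* (chr17:34422501-34435829, all plus strand) follow within 34870 bases. The annotated *Psmb9* and *Tap1* genes overlap by 743 bases on opposite strands, and since the libraries did not record strand, reads there cannot be told apart. *Psme1* (chr14:55815190-55822034, plus strand) and *Psme2* (chr14:55824895-55829173, minus strand) point toward each other with 2860 bases between them. *Psmb10* is at chr8:106662362-106665077 and *Tapbpl* at chr6:125200373-125208994, both on the minus strand, and *Erap1* is at chr13:74787687-74841320 on the plus strand.

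The neighbours *Psmb9* and *Tap1*, which rose with log2 fold changes of 8.11 and 6.31 in WT, are read from start sites with 225 bases between them. The stretch that the RefSeq windows of both share is shown because it spans the RefSeq start sites of both genes (chr17:34406280-34406554 of GRCm39, 275 bases, plus strand). It lies inside the bounds GENCODE gives both genes and holds none of the motifs searched.

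*Psmb9* and *Tap1* shared window: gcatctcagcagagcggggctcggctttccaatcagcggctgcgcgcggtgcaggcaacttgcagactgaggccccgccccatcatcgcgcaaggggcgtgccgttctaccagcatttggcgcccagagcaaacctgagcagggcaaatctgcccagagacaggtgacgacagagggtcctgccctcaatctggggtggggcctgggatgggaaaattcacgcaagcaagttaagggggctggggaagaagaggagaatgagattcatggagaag

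Windows from 250 bases before to 50 after a start site were given by RefSeq (GRCm38.p6) for 8 of the 10 genes, in 9 windows that each matched GRCm39 exactly once. They were searched on both strands for the gamma-activated sequence GAS (TTCNNNGAA), the interferon response element ISRE (GAAA and GAAA with any 2 bases between) and the κB motif, which do not share bases in any match below. Of 32851 RefSeq windows, 8.30% hold the GAS letters, 3.44% the ISRE letters and 8.46% a κB match. *Psmb8* has a GAS match whose first base is at position -97 from the start site. *Psme1* has an ISRE match from position 10 and *Erap1* one from position -4, both on the minus strand. The windows of *Psmb10*, *Psme2*, *Tapbp*, *Psmb9* and *Tap1* hold no match, which says only that these letters are not in them. The 3 windows with a match are shown from 250 bases before to 20 after the start, plus strand, with the match in capitals. They lie at chr17:34416919-34417188 (*Psmb8*), chr14:55815701-55815970 (*Psme1*) and chr13:74787722-74787991 (*Erap1*) of GRCm39, inside the bounds GENCODE gives these genes.

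*Psmb8*: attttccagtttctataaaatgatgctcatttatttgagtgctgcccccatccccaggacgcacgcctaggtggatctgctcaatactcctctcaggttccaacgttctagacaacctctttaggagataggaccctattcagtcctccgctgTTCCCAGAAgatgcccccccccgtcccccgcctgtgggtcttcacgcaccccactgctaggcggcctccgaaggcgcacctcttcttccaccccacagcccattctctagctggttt
*Psme1*: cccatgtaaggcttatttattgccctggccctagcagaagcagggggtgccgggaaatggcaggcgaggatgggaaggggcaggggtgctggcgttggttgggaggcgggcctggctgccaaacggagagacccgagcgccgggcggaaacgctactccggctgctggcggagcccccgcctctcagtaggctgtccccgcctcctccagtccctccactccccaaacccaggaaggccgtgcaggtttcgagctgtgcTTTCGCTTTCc
*Erap1*: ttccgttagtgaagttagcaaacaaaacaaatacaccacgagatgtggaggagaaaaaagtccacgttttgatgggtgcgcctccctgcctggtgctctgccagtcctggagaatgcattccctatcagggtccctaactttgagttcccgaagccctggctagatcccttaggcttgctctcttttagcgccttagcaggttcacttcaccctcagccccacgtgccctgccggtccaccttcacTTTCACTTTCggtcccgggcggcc

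The rest of the pathway moved by smaller amounts at the proteasome core. Besides the 3 constitutive catalytic subunits, all 11 other subunits of the core particle were called higher in both genotypes, with a median log2 fold change of 0.87 in WT and 0.81 in *Nlrx1*-/- litters. All 18 listed subunits of the 19S cap, which unfolds substrates, were called higher in both, with medians of 0.57 and 0.72. Among 11 assembly factors, other activators and inhibitors, 4 were called higher and 1 lower in WT, and 5 higher and 1 lower in *Nlrx1*-/- litters. Called or not, 10 had log2 fold changes above 0 in WT and 8 in *Nlrx1*-/- litters. *Pomp*, a chaperone of proteasome assembly, rose by 1.45 in WT and 1.28 in *Nlrx1*-/- litters, and *Psmg4*, another, by 1.41 and 1.06. *Psme4*, which encodes the alternative activator PA200, fell by 0.27 in WT (edgeR adjusted p = 0.00271) and had -0.03 in *Nlrx1*-/- litters (adjusted p = 0.654), and *Psmg2* fell by 0.24 in *Nlrx1*-/- litters (adjusted p = 0.0289).

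Of 6 genes for chaperones of the endoplasmic reticulum and for peptide trimming, all 6 were called higher in WT and 5 in *Nlrx1*-/- litters. All 6 had log2 fold changes above 0 in both genotypes. *Calr* and *Pdia3*, whose products, like tapasin, are part of the peptide loading complex, rose by 1.23 and 1.26 in WT and by 1.17 and 1.16 in *Nlrx1*-/- litters. Of 7 cytosolic peptidases, which destroy or trim peptides before transport, 4 were called higher in WT and 7 in *Nlrx1*-/- litters. All 7 had log2 fold changes above 0 in both genotypes, the largest for *Lap3* with 2.44 and 2.45. The class I chains *H2-K1*, *H2-D1* and *B2m* rose by 5.38, 5.16 and 4.25 in WT and by 4.68, 4.93 and 4.26 in *Nlrx1*-/- litters. The regulators *Irf1* and *Nlrc5* rose by 5.81 and 6.36 in WT and by 5.59 and 6.48 in *Nlrx1*-/- litters. Between genotypes, no gene of these lists was called by edgeR in vehicle or in the interaction, where it called 0.0% of all genes. In treated wells, where 2.46% of all genes were called higher in *Nlrx1*-/- astrocytes, 4 of the 18 cap subunits were, each with an adjusted p near the threshold: *Psmc5* (0.31, adjusted p = 0.0459), *Psmc6* (0.30, adjusted p = 0.0495), *Psmd6* (0.21, adjusted p = 0.0499) and *Adrm1* (0.33, adjusted p = 0.0429). These calls depended on the fit. Without WT litter 2, without WT litter 3 and with the 8 treated libraries alone, edgeR called 0 of all genes higher.

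**Figure D5:**
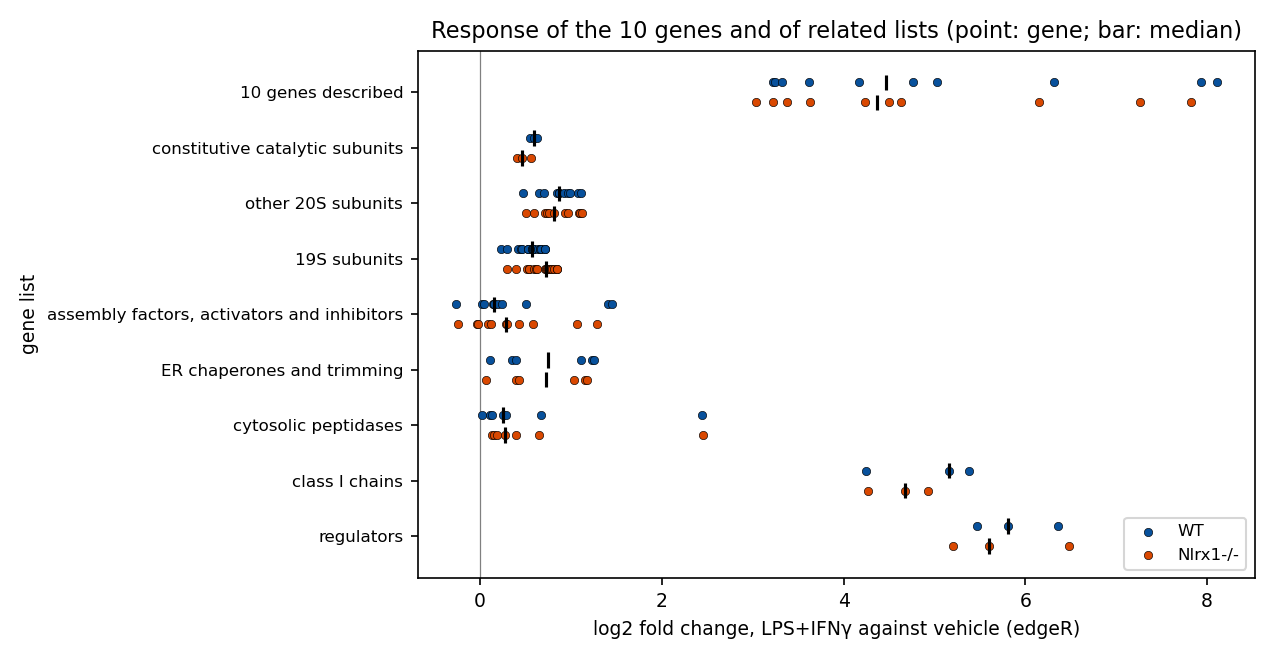
Log2 fold change of LPS + IFNγ against vehicle from edgeR (horizontal axis) for the 10 genes and 8 lists of related genes (vertical axis), in WT (blue) and *Nlrx1*-/- (orange) litters; points are genes and bars list medians. The 10 genes lie between 3.03 and 8.11, core and cap subunits of the proteasome between 0.23 and 1.13, and the class I chains between 4.25 and 5.38.

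Over the 16 libraries, the genes whose log2 CPM was most like the mean of the standardized log2 CPM of the 10 were *Irf1* (Pearson r = 0.9995), *Serpina3f* (0.9992), *Ube2l6* (0.9992), *Gbp10* (0.9992) and *Apol6* (0.9991), of 12590 genes compared. The next gene had 0.9991 as well. The libraries share the step between vehicle and treated wells, which sets most of such a correlation. *Irf1* encodes a transcription factor induced by interferon and *Gbp10* a guanylate binding protein. *Irf1* went from a mean of 3.62 to 9.43 log2 CPM in WT and from 3.76 to 9.36 in *Nlrx1*-/- litters, while *Serpina3f* and *Apol6* stood at the floor of the table, -4.13, in both vehicle groups.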

How the data were processed

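Gene expression was measured by poly-A RNA-seq, without strand, in 16 libraries grouped by the sample labels. The authors quantified transcripts with Salmon 1.7.0 against GRCm39 and deposited expected counts, TPM and effective lengths per transcript. The CPM signal and log2 CPM per gene that the authors deposited come from length-scaled counts with TMM in limma 3.58.1. For each gene the expected counts of its transcripts were added up and rounded, with 106440 of 129698 transcripts (96.7% to 97.3% of reads) tied to a symbol. The quasi-likelihood test of edgeR 4.0.16 in R 4.3.3 was applied to genes that passed filterByExpr (minimum count 10), with TMM scaling, offsets for length, Benjamini-Hochberg adjustment and a threshold of 0.05, with scripts tested on simulated data. Responses and the interaction had litters as blocks within genotype, following the study's design formula, and genotypes were compared over the 4 conditions without litter terms. Standard errors are the log2 fold change over the root of the F statistic. The labels state that both wells of a litter came from the same mice, and the libraries of a litter correlated at r = 0.06 to 0.32 across genes after centring by condition, against a median of -0.04 for other litters. Shares used TPM and exact permutation tests. DESeq2 1.42.0, limma-voom, other scalings, filters and thresholds, counts recovered from the deposited CPM and leaving out each litter were alternatives. Reads per library limit precision most for *Psmb8* and *Psmb9* in vehicle (43 to 214 reads). Named are the 10 genes, *Nlrx1*, genes of the 8 lists that were called or had the 2 highest and 2 lowest changes (shown here in part), and the 5 genes most like the 10. The values of 1 listed regulator are not reported here. The 10 genes and the lists were chosen with earlier results of these data known. Tables and figures used Python 3.11.15, numpy 2.4.6, pandas 2.3.3, scipy 1.17.1 and matplotlib 3.10.9.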

Additional observations from a re-analysis of the deposited data

Results flagged for a closer look

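In groups of 4 litters, the gap of the highest or lowest litter to its nearest neighbour was divided by the range of the group, and a ratio above Dixon's 95% critical value was taken as standing apart. Of 60 such groups of the 10 genes, 3 passed, where chance passes about 1 in 20. The level of *Psmb10* in *Nlrx1*-/- LPS + IFNγ had a ratio of 0.880, with litter 1 at 8.19 log2 CPM below the others at 8.31 to 8.33. The response of *Psme1* in *Nlrx1*-/- litters had a ratio of 0.969, with litter 2 at 3.45 log2 units above the others at 3.15 to 3.16. The response of *Tapbp* in *Nlrx1*-/- litters had a ratio of 0.882, with litter 2 at 3.95 above the others at 3.51 to 3.57.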

How the results depend on the processing

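All 10 genes were called higher after LPS + IFNγ in both genotypes under every alternative run. Between genotypes, counts of called genes moved as follows. In the interaction 1 gene was called lower with DESeq2 (*Psmb10*), and 0 to 1 with 1 litter left out. In vehicle 1 was called higher with DESeq2 (*Psmb10*), and 0 to 2 with 1 litter left out. In treated wells 1 was called lower (*Tapbpl*) with DESeq2, with limma-voom, with the replicate block and with limma-voom with litter as a random effect, and 0 to 2 with 1 litter left out. That block is the replicate number. The study states that the pups of both genotypes were born on the same day. The sample labels do not say whether litters with the same number were prepared together. The block changed no other call of the 10 genes (*Tapbpl* -0.42, adjusted p = 0.0327 in edgeR, with 1164 of all genes called lower against 363 without it). The cause of these moves was not tested. With 1 litter left out, the difference in the *Psmb8* share of treated wells ran from -1.38 to 0.0726 percentage points, above 0 without WT replicate 4, and that in the *Psmb9* share of vehicle wells from -0.179 to 0.157 points, above 0 without KO replicate 2. The log2 differences that changed sign were all of genes not called. With 1 litter left out, the interaction ran from -0.088 to 0.051 for *Tapbp* and from -0.030 to 0.15 for *Tap2*, the vehicle difference from -0.051 to 0.11 for *Erap1* and from -0.011 to 0.20 for *Psmb9*, and the treated difference from -0.064 to 0.021 for *Psmb8*, from -0.070 to 0.0071 for *Psme1* and from -0.013 to 0.10 for *Psme2*. The interaction of *Tapbp* was also -0.0083 without length offsets and -0.00080 with no replicate block, and the vehicle difference of *Erap1* -0.0116 without length offsets. With 3 litters against 4 the smallest exact permutation p is 0.0571, so the tests of shares cannot reach the threshold there.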
